A study of Mus musculus with 10 samples.

Results

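The naive pluripotency factors followed here in mouse embryonic stem (ES) cells are 10 transcription regulators, Esrrb, Klf2, Klf4, Klf5, Tbx3, Tfcp2l1, Zfp42, Prdm14, Nr0b1 and Dppa3. They were chosen by symbol, and all 10 matched an Ensembl identifier among the 22713 in both tables of normalised read counts. The mRNA was sequenced from 8 libraries. Pontinf/f; CreER ES cells, which carry floxed Pontin alleles and an inducible Cre recombinase, gave 1 library before 4-hydroxytamoxifen (OHT) was added, called WT, and 1 each at 3 and 4 days after it, called OHT 3D and OHT 4D. All of these, WT included, have the floxed alleles and CreER, and OHT lets Cre remove exon 3 of Pontin. ZHBTc4 ES cells, a line in which tetracycline (Tc) shuts off the transgene that supplies Oct4 in place of the disrupted endogenous alleles, gave 1 library after 2 days of Tc (Tc 2D). ZHBTc4 cells 4 days after lentiviral infection gave 2 libraries with a control shRNA (shControl) and 2 with an shRNA against the long intergenic RNA linc1253 (shlinc1253). No ZHBTc4 library without Tc and without virus was analysed here. ZHBTc4 cells also gave 1 chromatin immunoprecipitation (ChIP) library with an antibody against Pontin and 1 with an antibody against GFP.

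The naive state is that of the early epiblast of the mouse embryo, and ES cells hold it in culture with leukaemia inhibitory factor (LIF). LIF acts through Stat3 on Klf4 and Tfcp2l1, Wnt signals relieve the repression of Esrrb by Tcf7l1, and signalling by Fgf and Erk drives cells out of this state. The factors bind the same regulatory regions as Oct4, Sox2 and Nanog, and they can replace one another in part. Esrrb and Nr0b1 are orphan nuclear receptors, Klf2, Klf4 and Klf5 are zinc finger activators, Tbx3 is a T-box factor, and Tfcp2l1 belongs to the grainyhead family. Prdm14 is a zinc finger protein that represses Fgf signalling and de novo methylation, Zfp42 (Rex1) is a widely used marker of the state, and Dppa3 (Stella) is a chromatin-associated protein that protects maternal DNA from demethylation.

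Oct4 binds the octamer ATGCAAAT, and the members' promoters were searched for it on both strands, from 2.5 kb upstream to 500 bases downstream of the annotated gene start in NCBIM37, the build of the deposited reads. It was present in 4 members, Tbx3, Tfcp2l1, Zfp42 and Dppa3, against 14.6% of the windows of all 22367 protein-coding genes. The stretches that hold it are shown because Oct4 was the factor removed in the Tc 2D library. They are written 5′ to 3′ on the strand of the gene, with the octamer or its reverse complement in capitals.
Tbx3, chr5:120118667-120118715, plus strand: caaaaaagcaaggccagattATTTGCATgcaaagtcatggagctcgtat
Tfcp2l1, chr1:120522113-120522161, plus strand: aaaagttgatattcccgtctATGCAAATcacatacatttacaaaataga
Dppa3, chr6:122574635-122574727, plus strand: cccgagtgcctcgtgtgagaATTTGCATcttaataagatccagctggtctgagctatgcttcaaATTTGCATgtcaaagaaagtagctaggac
Zfp42, chr8:44392364-44392613, minus strand: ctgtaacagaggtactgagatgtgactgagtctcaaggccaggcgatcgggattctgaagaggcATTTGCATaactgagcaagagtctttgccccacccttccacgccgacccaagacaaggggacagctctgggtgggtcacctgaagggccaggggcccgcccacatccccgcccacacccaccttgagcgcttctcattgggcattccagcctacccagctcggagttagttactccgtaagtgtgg
With the annotated gene start as position 0, the octamer lay at -1991 to -1984 in Tbx3, at -2389 to -2382 in Tfcp2l1 and at -186 to -179 in Zfp42. Dppa3 held 2 octamers, at -1773 to -1766 and at -1729 to -1722. The Zfp42 stretch is the whole of the 250 bases upstream of the gene start, and its octamer was the one nearest to a start among the members.

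Motifs of 2 further regulators were searched in the same windows. The palindrome TTCCNGGAA, which Stat3 binds, was present in Esrrb and Zfp42 and in 9.07% of all windows. The sequence TCAAGGTCA, which Esrrb binds, was present on either strand in Tfcp2l1 and in 7.69% of all windows. Klf4 and Tfcp2l1 held no match to the Stat3 palindrome in this window. The stretches with a match are shown, in the same form, because Stat3 and Esrrb are regulators of the naive state.
Esrrb, chr12:87701426-87701474, plus strand: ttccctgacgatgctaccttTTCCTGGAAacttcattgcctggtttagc
Zfp42, chr8:44394686-44394734, minus strand: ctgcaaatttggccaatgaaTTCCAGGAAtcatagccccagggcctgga
Tfcp2l1, chr1:120524016-120524064, plus strand: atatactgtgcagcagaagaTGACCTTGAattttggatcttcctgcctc
The matches describe letters in a window and do not show binding. No match overlapped a match of another motif.

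Reads on genes ranged from 17187595 to 37951742 per library, and the values are read counts scaled to library size (CPM) after TMM normalisation, done for each table on its own. For Pontin mRNA, listed as Ruvbl1, the WT library gave 198 CPM, and the OHT 3D and OHT 4D libraries gave 33.3 and 50.9. It was also lower at Tc 2D, at 85.0 CPM, with log2 fold changes of -1.21 against WT and -0.85 against shControl. Past the threshold used below, 25.8% of all genes were lower against WT and 23.5% against shControl. Line differs from WT along with Oct4, and virus, sequencer and table differ from shControl. The study itself found no significant change of Pontin mRNA or protein after Oct4 depletion. For Oct4 mRNA, listed as Pou5f1, WT gave 301 CPM and Tc 2D gave 21.1. The 8 defining ES cell markers, Oct4 among them, were expressed in every library, none changed past the threshold used below at OHT 3D or OHT 4D, and all 8 were lower at Tc 2D than in WT. The linc1253 RNA was not matched to an identifier and its level was not analysed here. The cells were grown either on fibroblast feeders or without them, and which library came from which culture is not given in the sources used here.

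Sequence shared with other places in the genome bears mainly on 3 members. Of 100-base tiles of the Zfp42 transcript, 53.2% also aligned, with at most 2 mismatches, to chr15:93509043-93510461, where no gene is annotated. Of those of Dppa3, 58.1% aligned to chrX:35039889-35040670, inside the pseudogenes Gm6269 and Rhox3g-ps. For Klf4 the share was 18.6% over 5 places, for Tfcp2l1 it was 0.109%, and for the other 6 members it was 0. Exons of Tbx3 overlap the antisense gene Gm2301, and the library kit does not mark strand. An exon of Tfcp2l1 overlaps a U1 RNA gene on the same strand. Values of Zfp42, Dppa3, Klf4, Tbx3 and Tfcp2l1 are therefore uncertain. Reads shared with these places may have been counted with the member or left out of the count, and the study does not state which.

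**Figure D1:**
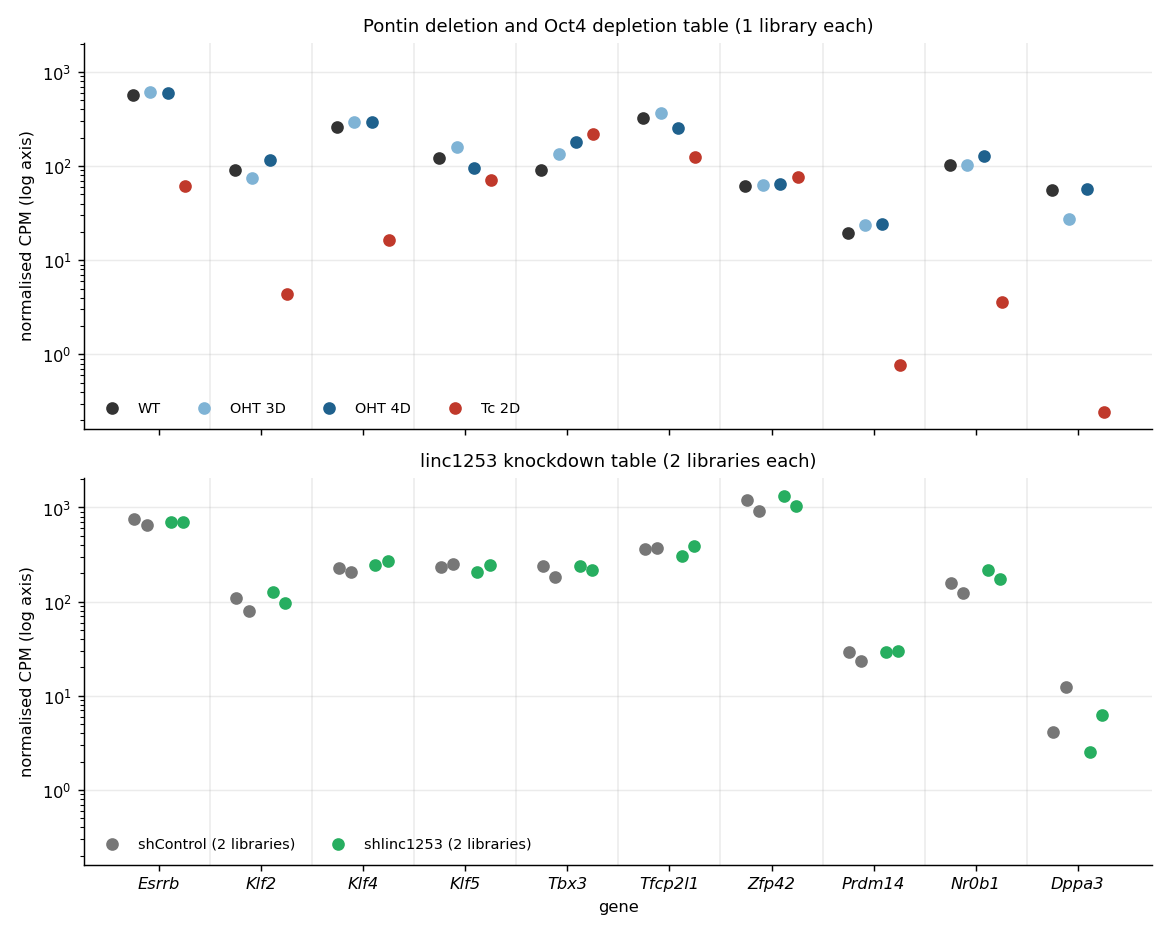
Normalised CPM of each member on a log axis, with 1 point per library. In the upper panel the red Tc 2D point is the lowest of the 4 for 8 members, and is the highest for Tbx3 and Zfp42. In the lower panel shControl and shlinc1253 lie close together for the members other than Dppa3, and Zfp42 is far above its level in the upper panel.

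To compare the members with one another, reads were divided by exon length and put on 1 TMM scale over the 8 libraries, as RPKM, reads per kb of exon at equal library size. In WT the order of these levels was Esrrb at 115, Klf4 at 104, Klf5 at 86.4, Dppa3 at 77.0, Nr0b1 at 69.4, Klf2 at 60.1, Tfcp2l1 at 43.5, Zfp42 at 42.1, Tbx3 at 20.8 and Prdm14 at 9.38. With 1 WT library no spread belongs to this order. In the 2 shControl libraries Zfp42 came first, at an RPKM of 725 and 556, followed by Klf5 at 146 and 159 and Esrrb at 134 and 117. The ranges of these 3 did not overlap. Nr0b1, at 94.2 and 75.2, overlapped with Klf4 at 79.7 and 74.2. Klf2, at 63.4 and 47.3, overlapped with Tbx3 at 48.0 and 37.0, and Tbx3 overlapped with Tfcp2l1 at 42.0 and 43.6. Prdm14, at 12.2 and 9.90, could not be separated from Dppa3 at 5.02 and 15.3.

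Zfp42, Dppa3 and Tbx3 differed most between the undepleted cells of the 2 lines. On the same 1 scale, before division by length, Zfp42 stood at a CPM of 75.8 in WT and at 1305 and 1000.2 in shControl, a log2 difference of 3.90 that lay at percentile 99.7 of all genes. Dppa3 went the other way, with 68.7 in WT against 4.48 and 13.6, a log2 difference of -2.96 at percentile 0.0562. Tbx3 had 112 in WT against 257 and 198, a log2 difference of 1.01 at percentile 94.1.

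Klf5 was next, with a log2 difference of 0.81, and the other 6 members lay between -0.43 for Klf4 and 0.28 for Nr0b1. Line, table, sequencer and viral infection all differ between WT and shControl and cannot be told apart. At Tc 2D, which is ZHBTc4 but shares the table and sequencer of WT, Zfp42 had a CPM of 94.7 on this scale, near that of WT, and Oct4 had been depleted there.

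The loss of Pontin, an AAA+ ATPase of chromatin remodelling and acetyltransferase complexes, was the question of these libraries of the study. Log2 fold changes against WT used CPM plus 1, and a gene was called upregulated or downregulated past an absolute value of 0.58, the threshold the study used. At OHT 3D, 1 member was downregulated, Dppa3, where 5.88% of 13449 genes were, and 0 were upregulated, where 6.01% of genes were. At OHT 4D, 1 member was upregulated, Tbx3, against 6.48% of genes, and 0 were downregulated, against 8.89%. The members had a median log2 fold change of 0.13 after 3 days and 0.14 after 4, beside -0.02 and -0.003 over all genes. The 2 comparisons share the WT library. OHT itself, Cre activity and days after OHT differ from WT along with Pontin, and cannot be told apart from it. No library with OHT but without floxed Pontin was analysed here. With 1 library per condition there is no test, and the intervals given cover the counting of reads alone.

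Esrrb stood at 565 CPM before OHT, 609 after 3 days and 601 after 4, log2 fold changes of 0.11 and 0.09. Nr0b1 had 102, 103 and 128, log2 fold changes of 0.02 and 0.33. The nuclear receptors thus lay inside the threshold at both times, where Pontin mRNA was lower by 5.81-fold and 3.85-fold.

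Klf4 stood at 257 CPM before OHT, 291 after 3 days and 293 after 4. Klf2 had 89.9, 73.9 and 115, and Klf5 had 120.5, 158 and 96.0. Klf4 was slightly above WT at both times, whereas Klf2 lay below and then above it and Klf5 above and then below it. The log2 fold changes of Klf2 were -0.28 (95% counting interval -0.37 to -0.19) and 0.36 (0.27 to 0.44), and those of Klf5 were 0.39 (0.32 to 0.46) and -0.32 (-0.41 to -0.24), none past the threshold.

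Tbx3, which takes part in both self-renewal and the path to extraembryonic endoderm, stood at 90.6 CPM before OHT, 133 after 3 days and 178 after 4. The log2 fold change of Tbx3 was 0.55 (95% counting interval 0.47 to 0.63) at OHT 3D, just inside the threshold, and 0.97 (0.89 to 1.05) at OHT 4D, past it. It was higher than WT at both times, and at OHT 4D it was the member farthest from WT.

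Dppa3 stood at 55.7 CPM before OHT, 27.2 after 3 days and 57.3 after 4. That was 2.01-fold lower at 3 days on the scale of CPM plus 1 (95% counting interval of the log2 fold change -1.14 to -0.87), and at 4 days the log2 fold change was 0.04 (-0.07 to 0.15). The low value stands at 3 days alone, and the level at 4 days was that of WT. Between the 2 shControl libraries, which are replicates of another line, Dppa3 differed by 1.38 on the log2 scale, the one member among the 10 past 0.58 there, where 3.10% of genes were.

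Tfcp2l1 stood at 327 CPM before OHT, 362 after 3 days and 252 after 4, log2 fold changes of 0.15 and -0.38. Prdm14 had 19.5, 23.4 and 24.1, log2 fold changes of 0.25 and 0.29. Zfp42 had 61.4, 63.2 and 64.1, log2 fold changes of 0.04 and 0.06. None of these 3 passed the threshold at either time, and of these Zfp42 moved least.

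**Figure D2:**
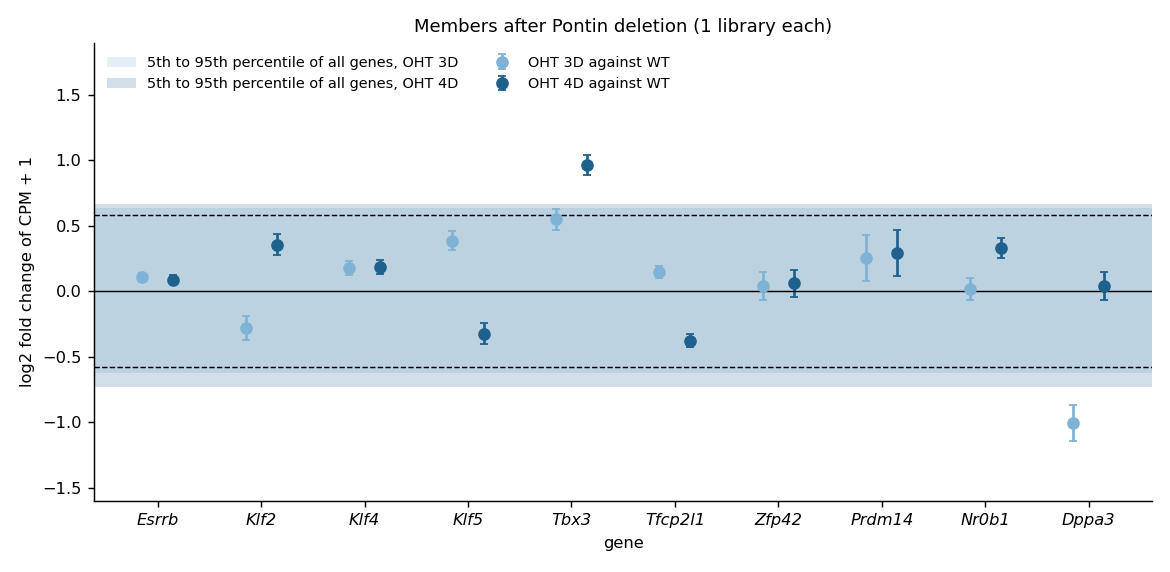
Log2 fold change of CPM + 1 against WT for each member at OHT 3D and OHT 4D, with bars for the 95% counting interval. Shaded bands span the 5th to the 95th percentile of all genes and dashed lines mark 0.58 in either direction. Dppa3 at OHT 3D and Tbx3 at OHT 4D lie outside the dashed lines, and all other points lie between them.

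Other genes of the naive state and of its inputs were read from lists. Of 24 further genes of naive ES cells, 4 were upregulated and 1 downregulated at OHT 3D, with a median log2 fold change of 0.00. The largest rises were those of Gbx2, a homeobox factor downstream of LIF (1.47), Tet2, a 5-methylcytosine dioxygenase (0.90), and Zfp57, which guards imprints (0.71), and Tcl1, a cofactor of Akt, fell (-0.83). At OHT 4D, 3 rose and 4 fell, with a median of 0.07. Gbx2 (1.05), Mylpf (0.79) and Zfp57 (0.68) rose, and Tet1 (-0.99), the nuclear receptor Nr5a2 (-0.91) and Sall1 (-0.73) fell. Over all genes, 6.01% rose and 5.88% fell at OHT 3D, and 6.48% rose and 8.89% fell at OHT 4D.

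Of 17 expressed genes of the formative and primed states, which follow the naive state, 4 rose and 4 fell at OHT 3D. Over all genes 6.01% rose and 5.88% fell there. At OHT 4D 6 rose and 2 fell, where 6.48% and 8.89% of all genes did. Among the rises, Sox3 at OHT 3D and Fgf5 and T at OHT 4D had low levels, a mean CPM of 1.07, 0.592 and 0.733. N-cadherin (Cdh2) rose by log2 values of 1.53 and 1.32, Foxd3 by 1.01 and 0.93, and the Ets factor Etv4 by 0.71 and 0.81. Otx2, a homeobox factor of the primed epiblast, fell at both times (-0.91 and -0.66), as did the Wnt effector Lef1 (-0.89 and -0.68).

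Zic5 fell at 3 days (-1.07) and was inside the threshold at 4 (-0.56). Of 22 expressed genes that feed signals to the members, 3 rose and 2 fell at OHT 3D, where 6.01% and 5.88% of all genes did. At OHT 4D 2 rose and 1 fell, where 6.48% and 8.89% of all genes did. The BMP targets Id1 (1.49 and 1.41) and Id3 (1.03 and 1.59) rose at both times. Mapk3, which encodes an Erk kinase, fell at OHT 3D (-0.72), and the LIF co-receptor Il6st fell at OHT 4D (-0.93). Among the other genes named by the same rule, Spry4 rose (0.71) and Tcf7 fell (-0.61) at OHT 3D.

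Markers of fibroblasts were higher after OHT than in WT. Of 22 expressed feeder fibroblast markers, 21 were upregulated at OHT 3D and 21 at OHT 4D, with medians of 2.22 and 2.26, and the summed CPM of the 24 listed went from 113 in WT to 672 and 787. Col1a1, a collagen chain that fibroblasts make in bulk, went from 4.20 CPM in WT to 46.5 and 64.6. Of 14 expressed markers of primitive endoderm, 5 rose and 1 fell at OHT 3D, and 10 rose and 0 fell at OHT 4D. Summed CPM over the 16 listed was 809 in WT, 1054 and 1117. Matrix genes weighed most in that sum, among them Sparc (208, 273 and 401) and Col4a1 (33.3, 95.6 and 129). Lamb1 was lower than WT at both times (151, 142 and 133). Of 14 expressed trophectoderm markers, 5 rose and 2 fell at OHT 3D, and 8 rose and 1 fell at OHT 4D, with medians of 0.45 and 0.79 and summed CPM over the 15 listed of 308 in WT, 297 and 504. The keratin gene Krt8, with the largest rise of the list at OHT 4D, went from 19.8 CPM in WT to 65.1 and 155. Tfap2c went the other way, from 192 CPM in WT to 114 and 127. Eomes, Fgfr2 and Tead4 were also below WT at both times. The part of these 3 marker lists in the values of Tbx3, Dppa3 and the other members was not tested. In bulk RNA, fewer cells of a type and less RNA per cell cannot be told apart.

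The next question was that of Oct4 depletion. At Tc 2D, 8 of the 10 members were downregulated against WT, where 25.8% of genes were, and 1, Tbx3, was upregulated, where 23.9% were. Nr0b1, Klf2, Klf4, Prdm14 and Esrrb fell 9.13-fold to 22.3-fold, Dppa3 fell 45.4-fold, Tfcp2l1 fell 2.63-fold and Klf5 1.69-fold. The median of the members was -3.36 on the log2 scale, beside -0.06 over all genes. Tc 2D and WT differ in cell line as well as in Oct4, and these cannot be told apart in this comparison.

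Nr0b1 went from 102 CPM in WT to 3.59 at Tc 2D, a log2 fold change of -4.48 (95% counting interval -4.71 to -4.25). Esrrb had 565 and 60.9, a log2 fold change of -3.19 (-3.26 to -3.12). Both nuclear receptors were still detected, Nr0b1 with 102 reads and Esrrb with 1729. Nr0b1, Dppa3, Klf2 and Klf4 fell further against WT than Oct4 mRNA itself, whose log2 fold change was -3.78. Against shControl, which is of the same line as Tc 2D, Nr0b1 had -4.81 and Oct4 mRNA -4.61.

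Klf2 went from 89.9 CPM in WT to 4.33 at Tc 2D, a log2 fold change of -4.09 (-4.31 to -3.87). Klf4 had 257 and 16.3, a log2 fold change of -3.90 (-4.03 to -3.77). Klf5, which is also a factor of the trophectoderm, had 120.5 and 70.8, a log2 fold change of -0.76 (-0.84 to -0.68). The log2 fold changes of Klf2 and Klf4 were larger in size than that of Klf5 in these libraries. The intervals cover counting alone, and the difference between the factors was not tested.

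Prdm14 went from 19.5 CPM in WT to 0.775 at Tc 2D, from 436 and 22 reads, a log2 fold change of -3.53 (-3.82 to -3.24). Dppa3 had 55.7 and 0.247, from 1245 and 7 reads, a log2 fold change of -5.51 (-5.73 to -5.28). For levels this low the addition of 1 to the CPM makes the fold change smaller than the ratio of the CPM values. Tfcp2l1 had 327 and 124, a log2 fold change of -1.40 (-1.45 to -1.34).

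Tbx3 went from 90.6 CPM in WT to 221 at Tc 2D, a log2 fold change of 1.28 (1.21 to 1.35). Zfp42 had 61.4 and 76.2, a log2 fold change of 0.31 (0.21 to 0.40), inside the threshold. These were the members that did not fall. Of the 4 members with an octamer in the window searched, Tfcp2l1 and Dppa3 fell against WT. Tfcp2l1, Dppa3 and Zfp42 fell against the shControl libraries described next. Esrrb, Klf2, Klf4, Klf5, Prdm14 and Nr0b1, which held no octamer there, fell against both references. Of all genes, 25.8% fell against WT and 23.5% against shControl, and a link with the octamer was not tested.

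The shControl libraries are of the same line as Tc 2D but come from the other table, so the comparison was repeated against them on 1 TMM scale. Against shControl, 9 members were downregulated, where 23.5% of 14225 genes were, and 0 were upregulated, where 24.1% were. The median of the members was -3.39, beside 0.004 over all genes. Virus, sequencer and table differ here along with Oct4, and cannot be told apart from it. The Tc 2D library is common to both comparisons, so the values stand side by side and do not support each other.

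For 6 members the 2 references gave log2 fold changes that differed by less than the threshold of 0.58. Esrrb had -3.19 against WT and -3.31 against shControl, Klf2 had -4.09 and -4.00, and Klf4 had -3.90 and -3.47. Tfcp2l1 had -1.40 and -1.36, Prdm14 had -3.53 and -3.90, and Nr0b1 had -4.48 and -4.81. All 6 were lower at Tc 2D than in either undepleted reference, Tfcp2l1 by least.

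The other 4 depended on the reference. Zfp42 had a log2 fold change of 0.31 against WT and -3.58 against shControl, with a CPM on the 1 scale of 94.7 at Tc 2D, 75.8 in WT and 1305 and 1000.2 in shControl. Tbx3 had 1.28 and 0.28, so that it was upregulated against WT and inside the threshold against shControl, where its CPM was 275 at Tc 2D beside 257 and 198. Klf5 had -0.76 and -1.56, and Dppa3 had -5.51 and -2.78. For Dppa3 the value against shControl was -3.48 without shControl replicate 1 and -2.07 without shControl replicate 2, and the value against WT ran from -6.23 with a pseudocount of 0.5 to -4.18 with one of 3. With a pseudocount of 3, Dppa3 had -1.75 against shControl, and Prdm14 had -2.58 against WT and -2.98 against shControl. For Zfp42, Dppa3 and Tbx3 the undepleted cells themselves differed most, as given above.

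**Figure D3:**
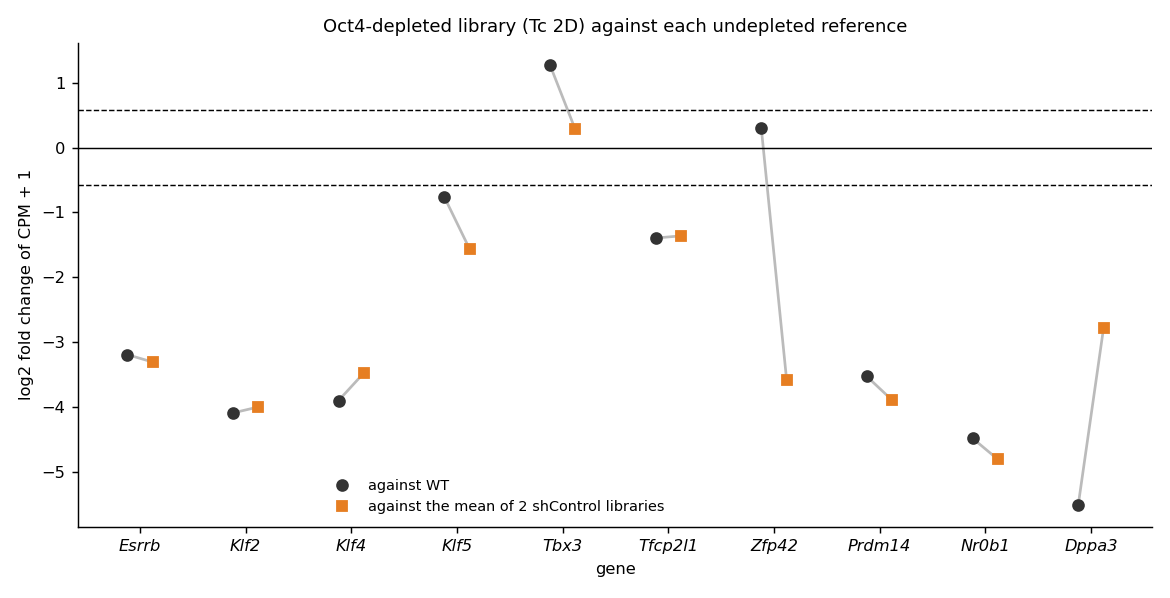
Log2 fold change of CPM + 1 of each member at Tc 2D against WT (circles) and against the mean of the 2 shControl libraries (squares), joined by a line. Dashed lines mark 0.58 in either direction. The pairs lie close together for Esrrb, Klf2, Klf4, Tfcp2l1, Prdm14 and Nr0b1 and apart for Zfp42 and Dppa3, and Tbx3 has both symbols above 0.

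Most of the further naive genes were also lower at Tc 2D. Of 24 further genes of naive ES cells, 23 were downregulated against WT, where 25.8% of all genes were. Against shControl 22 were, where 23.5% of all genes were. The medians of the list were -1.94 and -2.10. This list holds Pou5f1, the gene that Tc shuts off, and 6 of the 24, Pou5f1 included, are also among the 8 defining ES cell markers. Against WT the largest falls were those of Fgf4 (-5.10), Tcl1 (-4.91) and Pecam1 (-4.45), and Tex19.1 was the one that stayed inside the threshold (-0.35). Against shControl the largest falls were those of the junction protein Jam2 (-5.13), Fgf4 (-4.69) and Tcl1 (-4.64), and Sall1 (-0.35) and Tdh (-0.56), the latter named after its value was seen, did not pass.

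Of 17 expressed formative and primed genes, 13 fell and 1 rose against WT, where 25.8% and 23.9% of all genes did. Against shControl 12 fell and 1 rose, where 23.5% and 24.1% of all genes did. Otx2 (-3.02 and -3.53) was among the 3 largest falls against either reference. The gene that rose was Cdh2 (0.90 and 1.06). Dnmt3b, a de novo methyltransferase that Prdm14 represses, had log2 fold changes of -0.32 and -0.33, inside the threshold.

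Of the 22 expressed input genes, 7 rose and 7 fell against WT, where 23.9% of all genes rose and 25.8% fell. Against shControl 3 rose and 7 fell, where 24.1% and 23.5% of all genes did. Smad1, a BMP effector, rose against both (1.63 and 1.49), as did Id3 (2.46 and 0.70), whereas Id1 was up against WT (1.86) and down against shControl (-0.76). Spry4, an Erk feedback gene, fell against both (-2.56 and -2.39). Among the others named by the rule, Dusp6 fell (-1.33) against WT, and Spry2 (-1.64) and Trim28 (-1.71) fell against shControl.

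Trophectoderm is the lineage that ES cells enter when Oct4 is lost. Of its 14 expressed markers, 11 rose and 1 fell against WT, with a median of 2.27. Against shControl 11 rose and 0 fell, with a median of 2.66. Hand1 went from 0.268 CPM in WT to 61.8 at Tc 2D. Its log2 fold change was 5.63 against WT and 3.81 against shControl. Feeder fibroblast markers did not rise in the same way, with 4 up and 10 down of 22 against WT, and 5 of the 24 listed had 0 reads at Tc 2D. Of 14 expressed primitive endoderm markers, 6 rose and 1 fell against WT and 6 rose and 3 fell against shControl. The summed CPM of the 16 listed was 1204 at Tc 2D and 809 in WT, of which Col4a1 made up 206 and 33.3. Among them Gata6, a factor of that lineage, had log2 fold changes of 1.97 against WT and 2.39 against shControl. Of other factors listed, Gata4 had -0.115 and 1.54, Sox17 had 0.005 and 0.07, and Sox7 had -0.428 and -0.082. Klf5 and Tbx3 are not among the trophectoderm markers listed, and the part of these lineages in their values was not tested.

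Knockdown of linc1253, a noncoding RNA taken up by the study alongside Oct4 and Pontin, was compared over 2 libraries against 2. The test was limma with trend, fitted to log2-transformed CPM with 1 added, and no member passed a p of 0.05 after Benjamini-Hochberg adjustment over the 13407 genes tested. Neither did any other gene, so that 0.0% were called upregulated and 0.0% downregulated, with a smallest adjusted p of 0.265. At an unadjusted p under 0.05 there were 999 genes, 7.45%, and 2 of the members, Nr0b1 and Klf4. Count models on the recovered reads called 0 genes (quasi-likelihood, edgeR), 50 (DESeq2) and 80 (exact test, edgeR), with 0 members among them. The labels do not say that the replicates came from separate cultures, so the spread may be technical.

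Nr0b1 had a CPM of 158 and 124 in shControl and of 216 and 174 in shlinc1253. Its mean was 141 ± 23.8 (SD, n = 2) against 195 ± 30.0 (SD, n = 2), and both knockdown libraries lay above both controls. The log2 fold change was 0.47 (SE 0.15), with an adjusted p of 0.622 by limma. With 1 library left out it was 0.64 without shControl replicate 1, 0.30 without shControl replicate 2, 0.31 without shlinc1253 replicate 1 and 0.63 without shlinc1253 replicate 2.

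Klf4 had a CPM of 226 and 208 in shControl and of 246 and 269 in shlinc1253, again with no overlap, and a log2 fold change of 0.25 (SE 0.10) with an adjusted p of 0.644 by limma. Prdm14 had 29.1 and 23.2 against 29.4 and 29.6, a log2 fold change of 0.18 (SE 0.13) with an adjusted p of 0.796 by limma, and its value was 0.33 without shControl replicate 1 and 0.02 without shControl replicate 2. For Klf4 the values with 1 library left out ran from 0.18 to 0.31. In these 3 members the knockdown libraries were wholly higher, as in 18.8% of all genes. They were wholly lower in 0 members and in 19.2% of all genes.

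Dppa3 had a CPM of 4.15 and 12.4 in shControl and of 2.55 and 6.18 in shlinc1253, so the groups overlapped. Its log2 fold change was -0.72 (SE 0.50), with an adjusted p of 0.778 by limma. A single library moved this value, to -1.41 without shControl replicate 1, -0.03 without shControl replicate 2, -0.21 without shlinc1253 replicate 1 and -1.23 without shlinc1253 replicate 2. Zfp42 had 1210.3 and 914 against 1330.1 and 1025. Its log2 fold change was 0.15 (SE 0.18), the groups overlapped, and with 1 library left out the value ran from -0.05 to 0.35.

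Esrrb had a CPM of 753 and 645 in shControl and of 702 and 699.9 in shlinc1253. Klf2 had 109 and 79.7 against 126 and 95.9, and Klf5 had 232 and 249.9 against 205 and 247. In each of them the groups overlapped, and the log2 fold changes were 0.01, 0.24 and -0.10. With 1 library left out they ran from -0.10 to 0.12 for Esrrb, from 0.02 to 0.46 for Klf2 and from -0.23 to 0.03 for Klf5. Tbx3 had 239 and 181 against 236 and 217, and Tfcp2l1 had 361 and 369 against 302 and 389, log2 fold changes of 0.12 and -0.09. The groups overlapped here too, and the differences were within the spread of the replicates.

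**Figure D4:**
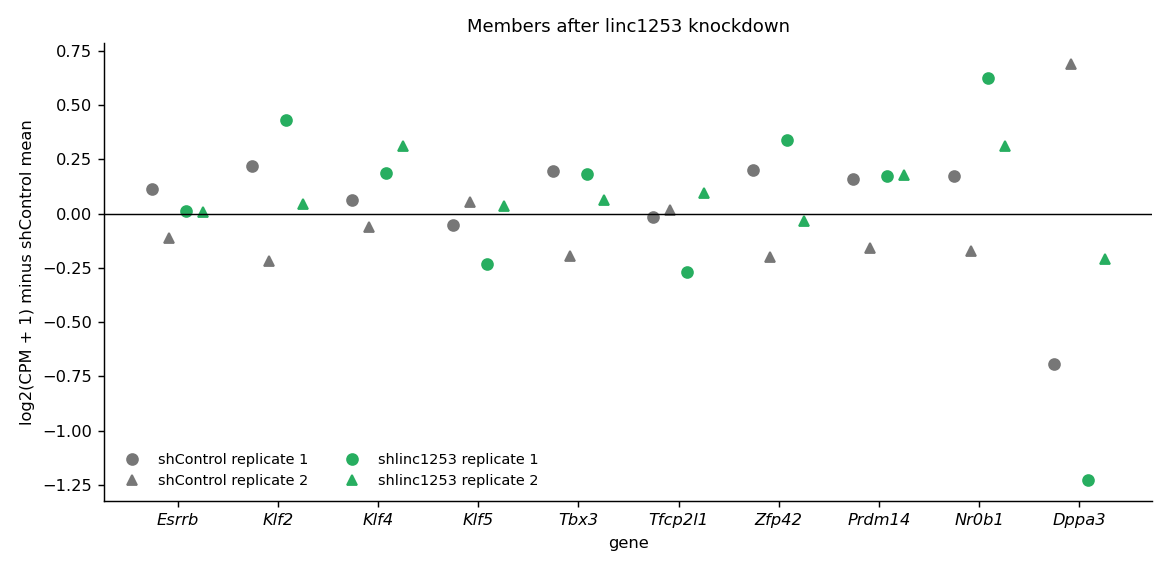
Log2 of CPM + 1 of each member in the 2 shControl and 2 shlinc1253 libraries, less the mean of the shControl libraries. The green knockdown points lie wholly above the grey control points for Klf4, Prdm14 and Nr0b1, and the grey points are widest apart for Dppa3.

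Among the other lists 0 genes were called after linc1253 knockdown by limma. The median log2 fold change was 0.14 for the members, 0.11 for the 24 further naive genes, 0.22 for 15 expressed formative and primed genes and -0.03 for 22 input genes, beside -0.001 over all genes. Among the further naive genes Gbx2 had the largest value, 0.69 with an adjusted p of 0.469 by limma, and Fgf4 the lowest, -0.35 with 0.550. Feeder fibroblast markers had a median of 0.40, and their summed CPM was 373 and 308 in shControl and 367 and 399 in shlinc1253. Vim made up 163 to 217 of each sum, and of the 24 listed markers 14 were higher and 9, Vim among them, were lower in replicate 2 than in replicate 1 of both groups. Among those that were higher, Acta2 had 3.31 against 0.277 CPM in shControl and 17.7 against 0.180 in shlinc1253. Tnc had 2.97 against 0.0923 in shControl and 13.5 against 0.0258 in shlinc1253. The part of these markers in the members' values was not tested.

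Over the 8 libraries the members were scaled to mean 0 and SD 1 and averaged, to describe how far each followed the others. The average was -1.78 at Tc 2D and between -0.06 and 0.45 in the other 7 libraries. The Pearson correlation with this average, which contains each member itself, was 0.99 for Prdm14 and Nr0b1, 0.98 for Esrrb, 0.96 for Klf2, 0.93 for Klf4, 0.91 for Tfcp2l1 and 0.82 for Klf5. It was 0.52 for Zfp42, 0.46 for Dppa3 and -0.18 for Tbx3. Tc 2D lies far from the other libraries, so these values mostly describe Tc 2D.

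Among 10718 genes whose mean CPM reached 5, the 10 outside the list with the profile most like this average were Jam2, Arf3, Pramef8, Clp1, Rabif, Pou5f1, Pnp, Dusp27, Lap3 and Stat4, with correlations from 0.994 to 0.991 over the 8 libraries. Jam2 had a CPM on the 1 scale of 4.86 at Tc 2D and of 124 to 311 elsewhere. Pou5f1 had 26.2 at Tc 2D and 372 to 774 elsewhere. These genes, like most members, were lowest at Tc 2D.

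Pontin binding was read from 40729076 Pontin and 17185883 GFP ChIP reads, as the log2 ratio of reads in the promoter window after scaling by library. The median over 21186 promoters with reads in both libraries was 0.34, with quartiles of -0.10 and 0.76. The median of the members was -0.03, and 3 members, Klf4, Tbx3 and Tfcp2l1, lay above the median of all promoters, as 49.7% of promoters did. There was 1 library per antibody and no test. The 95% intervals cover counting alone and rest on fragments, in which the reads of a pair count once. They were scaled by the read totals, so their place against the median of read ratios is approximate.

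Klf4 had 81 Pontin and 15 GFP reads, a log2 ratio of 1.19 (95% counting interval 0.11 to 2.51) at percentile 90.8 of all promoters. Tfcp2l1, whose window holds an octamer and an Esrrb motif, had 78 and 14 reads, a log2 ratio of 1.23 (0.001 to 2.42) at percentile 91.8. Tbx3 had 88 and 23 reads, a log2 ratio of 0.69 (-0.24 to 1.68). All 3 intervals contain the median of all promoters.

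The other 7 members had log2 ratios from -0.76 to 0.05. Dppa3 had 73 Pontin and 52 GFP reads, a log2 ratio of -0.76 (-1.73 to -0.40) at percentile 5.45, and Zfp42 had 86 and 44 reads, a log2 ratio of -0.28 (-1.20 to 0.17) at percentile 17.1. Klf2 had 82 and 46 reads, a log2 ratio of -0.41 (-1.04 to 0.32). The intervals of Dppa3 and Zfp42 lay below the median of all promoters. That of Klf2 ended at 0.32, too close to the median of 0.34 to be set apart from it. The values of Klf2, Dppa3 and Zfp42 depended on the processing. Klf2 had a log2 ratio of 0.34 within 1 kb either side of the gene start. With 1 read per position and strand Dppa3 had -0.36 and Zfp42 had 0.048, and Klf2, at -0.72, was the lowest.

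Esrrb had 51 and 23 reads (-0.10), Klf5 66 and 31 (-0.16), Prdm14 90 and 37 (0.04) and Nr0b1 49 and 20 (0.05), Pontin reads first and the log2 ratio in brackets. For Nr0b1 the value depended on the window, since within 1 kb either side of the gene start it had 45 and 4 reads, a log2 ratio of 2.25. Over all promoters the ratio correlated with GC content (Pearson r of 0.24 across promoters), and the members' windows had a median GC content of 50.4% against 48.1%. The part of GC content in these ratios was not tested.

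**Figure D5:**
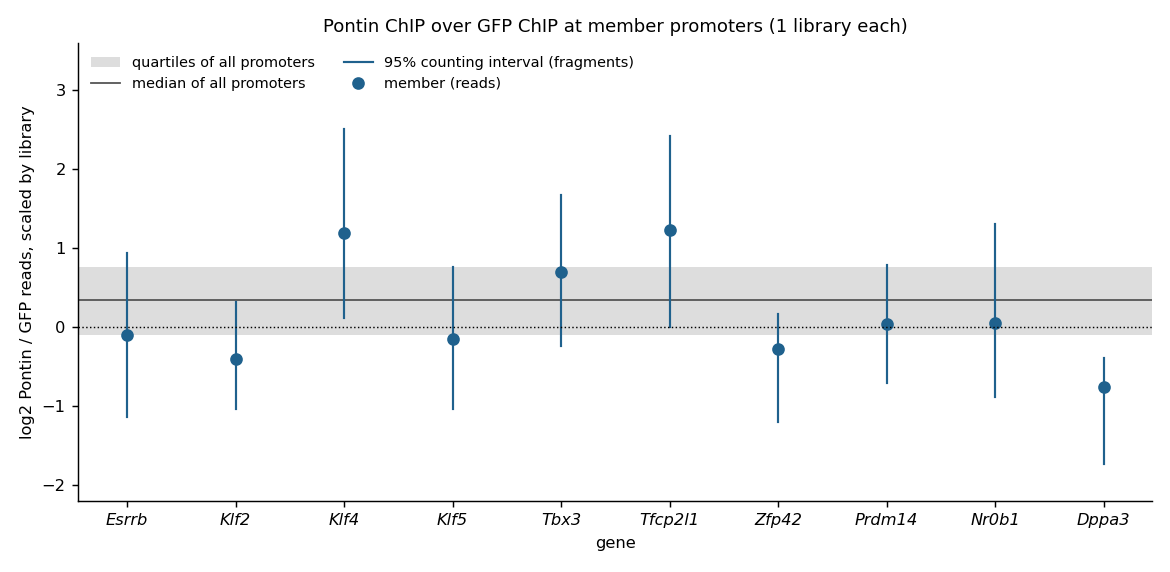
Log2 ratio of Pontin over GFP ChIP reads at each member's promoter, scaled by library size, with lines for the 95% counting interval over fragments. The grey band spans the quartiles of all promoters and the solid line marks their median of 0.34. Klf4 and Tfcp2l1 lie highest and Dppa3 lowest.

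Set beside the mRNA, the 3 members with the highest Pontin ratios in the window of 2.5 kb upstream to 500 bases downstream, Klf4, Tfcp2l1 and Tbx3, stood at 0.18, 0.15 and 0.55 on the log2 scale against WT after 3 days of OHT, and Dppa3, with the lowest ratio there, was 2.01-fold lower. At OHT 4D the values were 0.19, -0.38 and 0.97 for the first 3 and 0.04 for Dppa3. Within 1 kb either side of the start Nr0b1 had the highest ratio, and its log2 fold changes were 0.02 and 0.33. The ChIP was done in ZHBTc4 cells and the deletion in Pontinf/f; CreER cells, and no relation across the 10 members was tested.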

How the data were processed

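mRNA was measured in 8 libraries and ChIP in 2. The authors trimmed reads, aligned them to NCBIM37 with TopHat (mRNA) or Bowtie2 (ChIP), counted mRNA reads on genes with HTSeq, and deposited CPM values after TMM normalisation in edgeR, each table on its own. All values were whole reads (100.0%, within 0.01 read), and these reads were used for intervals and count tests. In the deposited ChIP files each line is a read, and the score column is its mapping quality. Intervals, and the limit of 3 reads for a count of 0, cover counting error only.

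Genes above a CPM of 1 in at least 1 library were kept. Differences between conditions with 1 library are log2 fold changes of CPM plus 1. The knockdown was tested with limma 3.58.1 with trend and Benjamini-Hochberg adjustment, and with edgeR 4.0.16 and DESeq2 1.42.0 on the recovered reads. On simulated data for the knockdown, with 13407 genes, limma recovered 92% of genes changed 2-fold and 100% of those changed 4-fold. These shares hold for the spread that was simulated. In the real libraries those with the same replicate number deviated together (correlation 0.673), so recovery may be lower there. The absence of calls therefore does not show that no gene changed. Recovery of smaller changes is not given, and every member changed by less than 2-fold, Dppa3 most at 1.65-fold. Symbols matched 22337 of 22713 identifiers. Tiles were aligned with minimap2 2.31. Python 3.11.15 and R 4.3.3 were used. Alternatives were other pseudocounts, filters, thresholds, scalings, tools, ChIP windows and left-out libraries.

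All 10 members are reported in every comparison. Of the lists of further naive, formative and input genes, the 3 largest rises and 3 largest falls at a mean CPM of at least 5 could be named, and not all are. Genes named from the marker lists of other cell types, Id1 against shControl, and Sox3, Fgf5 and T were chosen after their values were seen. The members and lists were chosen with earlier results of these data known. One member, Tfcp2l1, is annotated as Tcfcp2l1. The part of the study on linc1253 targets, lincRNAs and other factors was not analysed here.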

Additional observations from a re-analysis of the deposited data

How the results depend on the processing

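For OHT 3D, a pseudocount of 3 lowered the number of all genes called to 943 and a threshold of 1 to 380, and for OHT 4D these settings gave 1363 and 536. A threshold of 1 gave 3414 genes at Tc 2D against WT and 3410 against shControl, since fewer genes pass a higher threshold, and at OHT 4D it left 0 members upregulated, as Tbx3 then missed it. Without Zfp42 and Dppa3, an alternative chosen after seeing the data, 0 members were downregulated at OHT 3D. At Tc 2D the members called down were then 7 against either reference, as they were with a threshold of 1 against WT, where Klf5 missed it. The deposited CPM of each table, in place of 1 scale, moved the median of all genes at Tc 2D against shControl by -0.19 on the log2 scale and left 9 members downregulated.

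For the knockdown, DESeq2 called 50 genes and the exact test of edgeR 80, and DESeq2 gave no adjusted p for 2860 genes. Leaving out 1 library gave 0 to 19 genes, with 19 without shlinc1253 replicate 1 and 4 without shControl replicate 2, in fits that assume the lone library to vary like the others, and 0 members in each. With the replicate number as a block, limma called 1960 of 13407 genes, 3 members up (Klf2, Klf4 and Nr0b1) and 1 down (Dppa3). The share of all genes called in each direction is not given here, so these member counts have no background by direction. Libraries with the same number deviated together (correlation 0.673 over 13407 genes), but there are only 2 such pairs and nothing in the labels says that a number marks a shared batch, so the libraries are not treated as paired.

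For the ChIP ratios, the number of members above the median of all promoters was 3 under every alternative run, but not always with the same members. Scaling by the median ratio moves all promoters alike, so it could not change this number. Within 1 kb either side of the start they were Nr0b1 (2.25), Tfcp2l1 (1.02) and Klf4 (0.87), and Tbx3 (0.425) was below it. Over the values of single members, 421 kept their side of the threshold or stayed within their counting interval under an alternative, 4 passed and 2 missed a threshold, 3 ChIP ratios moved beyond their interval, and 0 called values changed sign. Depth limits Dppa3 at Tc 2D, with 7 reads, and the ChIP ratios, with 14 to 52 GFP reads per promoter.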
